A study of Mus musculus with 9 samples.

Results

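Intestinal gene expression of mice moved from a methionine-deficient diet back to a normal diet (1KR, collected on day 33) was compared with that of mice still on the deficient diet (1K, collected on day 28). The comparison took every gene with at least 1 FPKM (fragments per kilobase of transcript, relative to library depth) in either library, which gave 17495 of the 55468 genes in the table. Its measure is the difference of log2(FPKM + 0.5), 1KR minus 1K, a scale that understates the change of genes near 0. The same difference between 2 libraries of mice on the normal diet throughout, RR (day 33) minus R (day 28), was set beside it and covers 18003 genes.

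The series sequenced intestinal RNA of mice under 9 conditions in a model of colitis made with dextran sulfate sodium (DSS), a sulfated polysaccharide given in drinking water that damages the mucosa. All 4 groups used here had free access to DSS from day 18. R had the normal diet to day 28, RR the normal diet to day 33, 1K the methionine-deficient diet to day 28, and 1KR the deficient diet to day 28 followed by the normal diet to day 33. With 1 library for each condition, no difference could be set against a spread between replicates, no test was made, and every value describes those libraries. The sources used here do not give strain, age, sex, the number of animals behind a library or the part of the intestine sampled. 1KR differs from 1K in diet, in collection day and in the animals at once, and these cannot be told apart in the pair itself. In RNA of whole tissue, fewer cells of a type and less RNA per cell cannot be told apart either.

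Methionine is an essential amino acid that starts every protein chain and, as S-adenosylmethionine, gives the methyl groups for DNA, RNA, histone and phospholipid methylation. Its sulfur passes through homocysteine and cystathionine to cysteine, and from there to glutathione and taurine. The intestinal epithelium takes up dietary methionine through sodium-coupled and exchange transporters, renews itself from stem cells at the crypt base, and is flanked there by Paneth cells, which secrete antimicrobial proteins.

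In 1KR, 1150 genes (6.57%) were at least 2-fold higher than in 1K and 1362 (7.79%) were at least 2-fold lower, with a median of -0.09 over all genes. Between R and RR, 975 genes (5.42%) were higher in RR and 953 (5.29%) were lower, with a median of -0.05. Of the 16720 genes measured in both pairs, 1019 were higher in 1KR, and 207 of these (20.3%) were higher in RR too, which is 24.8% of the 833 genes higher in RR. Of the 1129 genes lower in 1KR, 248 (22.0%) were lower in RR too, which is 35.7% of the 694 lower there. Another 125 genes were higher in 1KR but lower in RR, and 76 were lower in 1KR but higher in RR. Across these genes, which are not independent replicates, the 2 day changes had a Pearson r of 0.21 and a Spearman rho of 0.28. The difference between the day changes reached 2-fold upward in 1772 genes (9.44%) and downward in 1690 genes (9.00%) of the 18778 with at least 1 FPKM in any of the 4 libraries. These splits move with the scaling. With FPKM rescaled to the sum of nuclear protein-coding genes, the share higher among genes past 2-fold went from 45.8% to 62.1% for 1KR against 1K, from 50.6% to 33.2% for RR against R and from 51.2% to 75.3% for the difference between them. Median-of-ratios scaling gave 50.6%, 42.0% and 61.6%. The median of all genes for 1KR minus 1K moved from -0.09 to 0.11 with the protein-coding scaling, and that for RR minus R from -0.05 to -0.24, so values of about 0.2 in size carry no direction here.

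**Figure D1:**
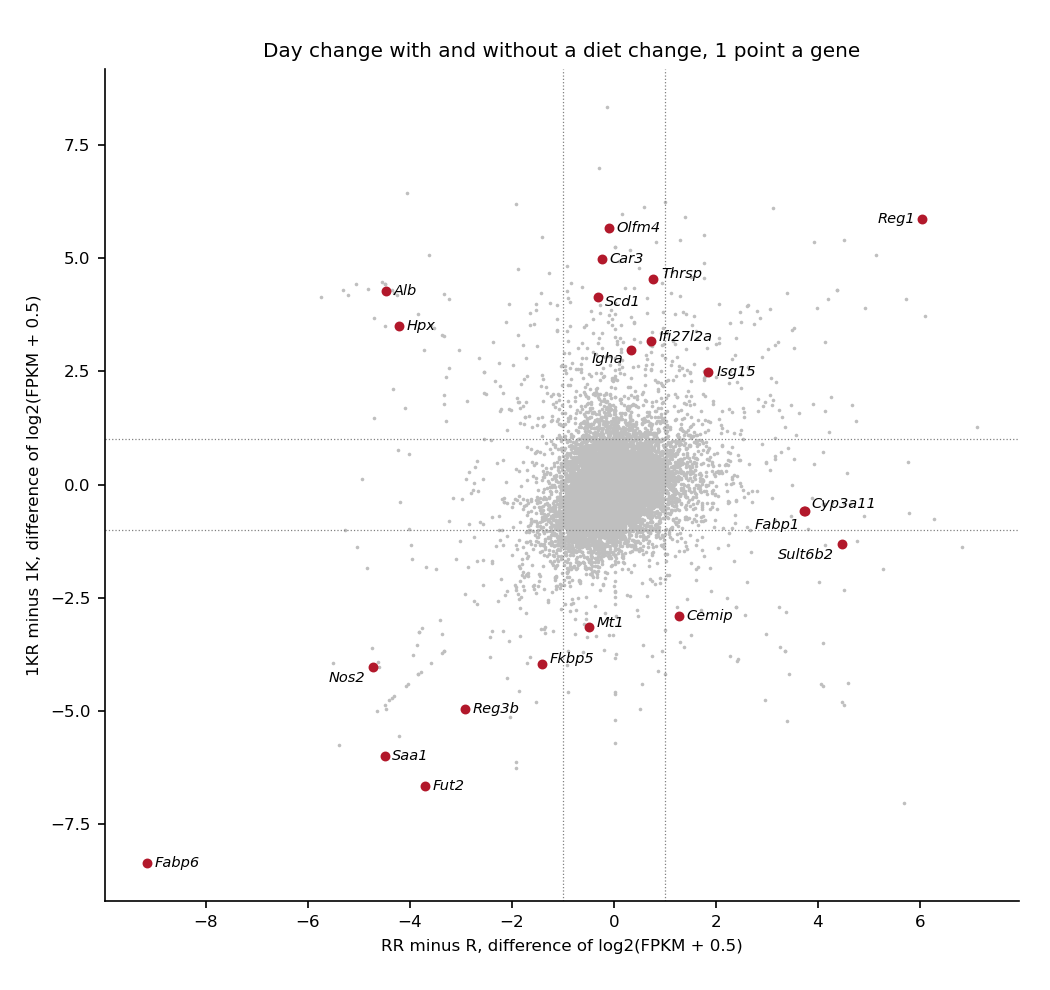
Difference of log2(FPKM + 0.5) for 1KR minus 1K (vertical) against RR minus R (horizontal), 1 grey point a gene measured in both pairs, with named genes in red and dotted lines at 2-fold. Fabp6 lies low and Reg1 high in both day changes, Olfm4, Car3 and Scd1 are high on the vertical axis and near 0 on the horizontal axis, and Alb and Hpx are high on the vertical and low on the horizontal axis.

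The estimated depth was 27.7, 21.6, 27.6 and 29.3 M fragments in R, 1K, RR and 1KR, so 1 FPKM for a gene of 2 kb stands for between 43.1 fragments in 1K and 58.5 in 1KR. Small RNAs held between 18.2% and 25.6% of the summed FPKM. Defining genes of the labelled tissue were high in all 4 libraries: Vil1, a brush border protein, had 671 FPKM in R, 942 in 1K, 739 in RR and 862 in 1KR, and Cdx2, an intestinal transcription factor, had 46.6 to 53.2 FPKM. As shares of the summed FPKM, liver genes made up 0.0134% in 1K and 0.0321% in 1KR against 0.0541% in R and 0.0215% in RR, the acinar list of the pancreas between 0.0408% and 0.0571%, and the stomach list at most 0.000560%. Ileal genes held 0.465% in R, 0.0988% in 1K, 0.0589% in RR and 0.0459% in 1KR.

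Most genes that handle methionine itself lay within 2-fold between 1KR and 1K. Of 21 measured genes of the methionine cycle, 3 were at least 2-fold higher in 1KR and 0 were lower, with a median of 0.05 beside -0.09 for all genes. Mat2a, the S-adenosylmethionine synthetase of most tissues outside the liver, stood at 47.4 FPKM in R, 40.7 in 1K, 42.7 in RR and 46.5 in 1KR, which is 0.19 on the log2 scale. Ahcy, which clears S-adenosylhomocysteine, ran at 10.7, 10.7, 12.1 and 14.1 FPKM in the same order. Methionine synthase, Mtr, had 3.91 FPKM in 1K and 2.87 in 1KR. The 3 genes past 2-fold all had low levels: Gamt, a methyltransferase that makes creatine (1.32 FPKM in 1K and 3.70 in 1KR), Nnmt, which methylates nicotinamide (0.115 and 1.61), and Mat1a, the liver form of the synthetase (0.0410 and 1.23, with 2.31 in R and 0.108 in RR). Nnmt and Mat1a passed the floor only through 1KR, which allowed them only an upward difference, so the counts are no result about the list. Mat1a followed the order of the liver genes described further on. The 12 polyamine genes, which draw on decarboxylated S-adenosylmethionine, had 0 members past 2-fold either way and a median of -0.01. Odc1, ornithine decarboxylase, was at 74.9 FPKM in 1K and 105 in 1KR, and at 66.6 in R and 109.7 in RR.

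The sulfur branch downstream of homocysteine showed larger differences in single genes than in the group. Of 11 transsulfuration and taurine genes, 1 was higher and 2 were lower in 1KR (median 0.16). Cdo1, cysteine dioxygenase, which commits cysteine to taurine and sulfate, stood at 22.5 FPKM in R, 4.50 in 1K, 20.1 in RR and 17.3 in 1KR, a difference of 1.83 between 1KR and 1K. 1K was the low library and the other 3 lay close together. Slc6a6, the taurine transporter, had the reverse order, with 106 FPKM in R, 292 in 1K, 92.1 in RR and 111 in 1KR (log2 difference -1.39). Gclc, the catalytic subunit that limits glutathione synthesis, resembled it with 31.4, 98.0, 31.0 and 38.4 FPKM (-1.34). In both, 1K was the high library and RR minus R was near 0, at -0.20 and -0.02. Cth, which splits cystathionine to cysteine, was highest in 1KR at 35.9 FPKM, against 19.8 in 1K, 23.4 in RR and 15.5 in R. Suox, sulfite oxidase, was lower at day 33 in both pairs, at 72.2 FPKM in R, 18.0 in 1K, 5.98 in RR and 4.56 in 1KR.

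Of 23 glutathione and NRF2 genes, 1 was higher in 1KR, 3 were lower and the median was 0.18. The same list had 8 higher and 2 lower of 24 between RR and R, with a median of 0.71. Gpx2, the glutathione peroxidase of the gut epithelium, was lower in RR than in R and in 1KR than in 1K, at 348 FPKM in R, 804 in 1K, 172 in RR and 208 in 1KR. Gsr, which regenerates reduced glutathione, went from 99.4 in R to 49.5 in RR and from 144 in 1K to 68.3 in 1KR. Gpx1, the widely expressed peroxidase, had 87.0 FPKM in 1K and 264 in 1KR (1.59), and 133 and 215 in R and RR.

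The amino acid stress response, which ATF4 drives when uncharged tRNA accumulates, had a median close to that of all genes. Of 28 measured targets, 0 were at least 2-fold higher in 1KR and 2 were lower, with a median of 0.12. Asns, asparagine synthetase, was at 26.1 FPKM in R, 28.3 in 1K, 20.3 in RR and 23.0 in 1KR. Trib3, a pseudokinase that feeds back on ATF4, had 16.5 in 1K and 18.3 in 1KR against 5.14 in R and 11.6 in RR. Atf4 mRNA itself was highest in 1KR, at 128 FPKM against 67.3 in 1K. The 2 lower targets were Eif4ebp1, a repressor of cap-dependent translation, at 10.01, 30.6, 9.27 and 13.5 FPKM in R, 1K, RR and 1KR, and Vldlr, a lipoprotein receptor, at 3.61 FPKM in 1K and 1.34 in 1KR. The letters of the C/EBP-ATF composite element, TGATGNAAN on either strand, occur in 9 of the 28 matched list promoters (32.1%) and in 4.04% of all 27025 RefSeq promoter windows of 300 bases (GRCm38.p6, from 250 bases before the gene start to 50 after it). Among 20 cytosolic aminoacyl-tRNA synthetases 1 was higher and 0 were lower (median 0.06), and of 53 cytosolic ribosomal protein genes 2 were higher and 0 were lower (median 0.21).

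Of 19 amino acid and peptide transporters, 1 was higher in 1KR and 4 were lower (median -0.23), against 4 higher, 1 lower and 0.04 for RR minus R. Slc6a19, the main sodium-coupled carrier of neutral amino acids including methionine in the brush border, stood at 294 FPKM in R, 732 in 1K, 402 in RR and 352 in 1KR. Slc6a14, a broad carrier of neutral and cationic amino acids, was at 9.67 FPKM in 1K and at 0.352, 0.060 and 0.0190 in R, RR and 1KR. For both genes 1K was the highest library. Slc6a20a, an imino acid carrier, was higher at day 33 in both pairs, with 90.5 and 195 FPKM in R and RR and 80.4 and 195 in 1K and 1KR.

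Some genes induced by glucocorticoid hormone were several-fold lower in 1KR than in 1K. Of 17 measured genes of the glucocorticoid list, 8 were at least 2-fold lower in 1KR and 0 were higher, with a median of -0.50. RR minus R had 3 lower and 1 higher of 16 and a median of -0.28, so part of that median was seen without a diet change. In 14 of the 17 genes 1K was the highest of the 4 libraries, against 34.5% of all genes. Fkbp5, a co-chaperone of the glucocorticoid receptor (chr17:28399094-28517527, minus strand, GRCm38, GENCODE M21), stood at 29.9 FPKM in R, 240.2 in 1K, 10.9 in RR and 15.01 in 1KR, a difference of -3.96. Zbtb16, a transcriptional repressor, ran at 7.18, 27.1, 2.86 and 2.46 FPKM. Mt1 and Mt2 encode metallothioneins, small zinc-binding proteins whose near-identical sequences can share fragments. Mt1 had 94.4, 968, 67.5 and 109 FPKM and Mt2 had 20.0, 202, 11.5 and 20.2 FPKM in R, 1K, RR and 1KR. All 4 genes had their highest level in 1K, and at day 33 lay within 2-fold of RR. Pdk4, the kinase that holds back pyruvate oxidation in fasting, was 17.2 FPKM in R, 151 in 1K, 42.1 in RR and 53.9 in 1KR, and so lower in 1KR than in 1K but higher in RR than in R. Sgk1, a kinase that raises sodium transport, ran at 415, 1084, 424 and 473 FPKM. Nr3c1, the receptor gene, moved by 0.24.

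The clock list had 2 of 18 genes lower in 1KR, a share near the 7.79% of all genes, 0 higher and a median of -0.47. RR minus R had 1 lower and 0 higher of 19 and a median of -0.21. Hlf, a transcription factor of clock output, was at 6.97, 28.3, 5.82 and 8.12 FPKM in R, 1K, RR and 1KR, and Cry2, a repressor of the clock, at 10.02, 20.4, 7.65 and 7.86. The core gene Arntl was at 1.84 FPKM in 1K and 3.00 in 1KR, and the hour of collection is not stated in the labels.

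Most measured adipocyte genes were higher in 1KR than in 1K. Of 13 measured adipocyte genes, 8 were at least 2-fold higher and 0 were lower, with a median of 2.15. Between R and RR the list had 1 higher and 0 lower of 14 and a median of 0.11. Adipoq, the fat cell hormone adiponectin, stood at 20.7 FPKM in R, 0.850 in 1K, 17.1 in RR and 18.1 in 1KR. Car3, a carbonic anhydrase abundant in fat and muscle, ran at 144, 2.94, 122 and 109 FPKM, a difference of 4.99. Plin1, which coats the lipid droplet of fat cells, ran at 11.6, 0.497, 11.3 and 10.9 FPKM. For these 3 genes 1K was low and the other 3 libraries lay within 2-fold of each other. Retn, a fat cell hormone, had 0.702 FPKM in 1K and 13.97 in 1KR, and Lpl, lipoprotein lipase, had 2.63 and 16.9. Adipoq, Plin1 and Retn were under 1 FPKM in 1K and passed the floor only through 1KR, which allowed them only an upward difference. The count and median of the list are thus partly set by the floor, which the share of all FPKM below does not use. Cidec, a lipid droplet protein also made by enterocytes, differed by -0.14 and Pnpla2, a triglyceride lipase of many cell types, by 0.19. The whole adipocyte list made up 0.0899% of all FPKM in R, 0.0368% in 1K, 0.0827% in RR and 0.0828% in 1KR. No separate measure of the amount of fat tissue in a sample was made, and its part in these values was not tested.

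Fatty acid synthesis genes had 4 of 17 higher in 1KR, 1 lower and a median of 0.48, against 1, 1 and -0.07 for RR minus R. Scd1, the desaturase that makes oleic acid (chr19:44394455-44407879, minus strand), stood at 146 FPKM in R, 10.9 in 1K, 117 in RR and 200.2 in 1KR, a difference of 4.14. Thrsp, a lipogenic protein of fat and liver, had 14.01, 0.721, 24.3 and 28.1 FPKM. Fasn, fatty acid synthase, had 58.5, 21.4, 61.6 and 60.8 FPKM. In all 3 genes 1K was the lowest of the 4 libraries. Scd2, a second desaturase, went the other way in both pairs, from 24.99 in R to 9.43 in RR and from 18.9 in 1K to 6.74 in 1KR. Fat tissue expresses Scd1, Thrsp and Fasn strongly, and whether their levels come from epithelium or from fat was not tested.

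Of 25 cholesterol synthesis genes, 9 were at least 2-fold lower in 1KR and 0 were higher, with a median of -0.76. RR minus R gave 5 of 25 lower, 0 higher and a median of -0.58. In 19 of the 25, 1K was the highest of the 4 libraries, beside 34.5% of all genes. Hmgcs1, which makes the precursor of mevalonate, had 63.2 FPKM in R, 75.7 in 1K, 33.9 in RR and 35.04 in 1KR, and Sqle, squalene epoxidase, had 19.3, 22.5, 8.01 and 10.3. Insig1, which holds the pathway in check, was at 31.0 FPKM in 1K and 24.5 in 1KR. The letters TCACNCCAC, a form of the sterol element, were found on either strand in 1 of 17 matched promoters and in 1.22% of all promoter windows. The promoter that held them was Hmgcs1, shown here because it belongs to the enzyme named above, with the letters in capitals (GRCm38.p6, RefSeq, chr13:119690183-119690252, plus strand).
Hmgcs1: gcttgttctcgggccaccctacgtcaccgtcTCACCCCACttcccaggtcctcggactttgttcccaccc

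**Figure D2:**
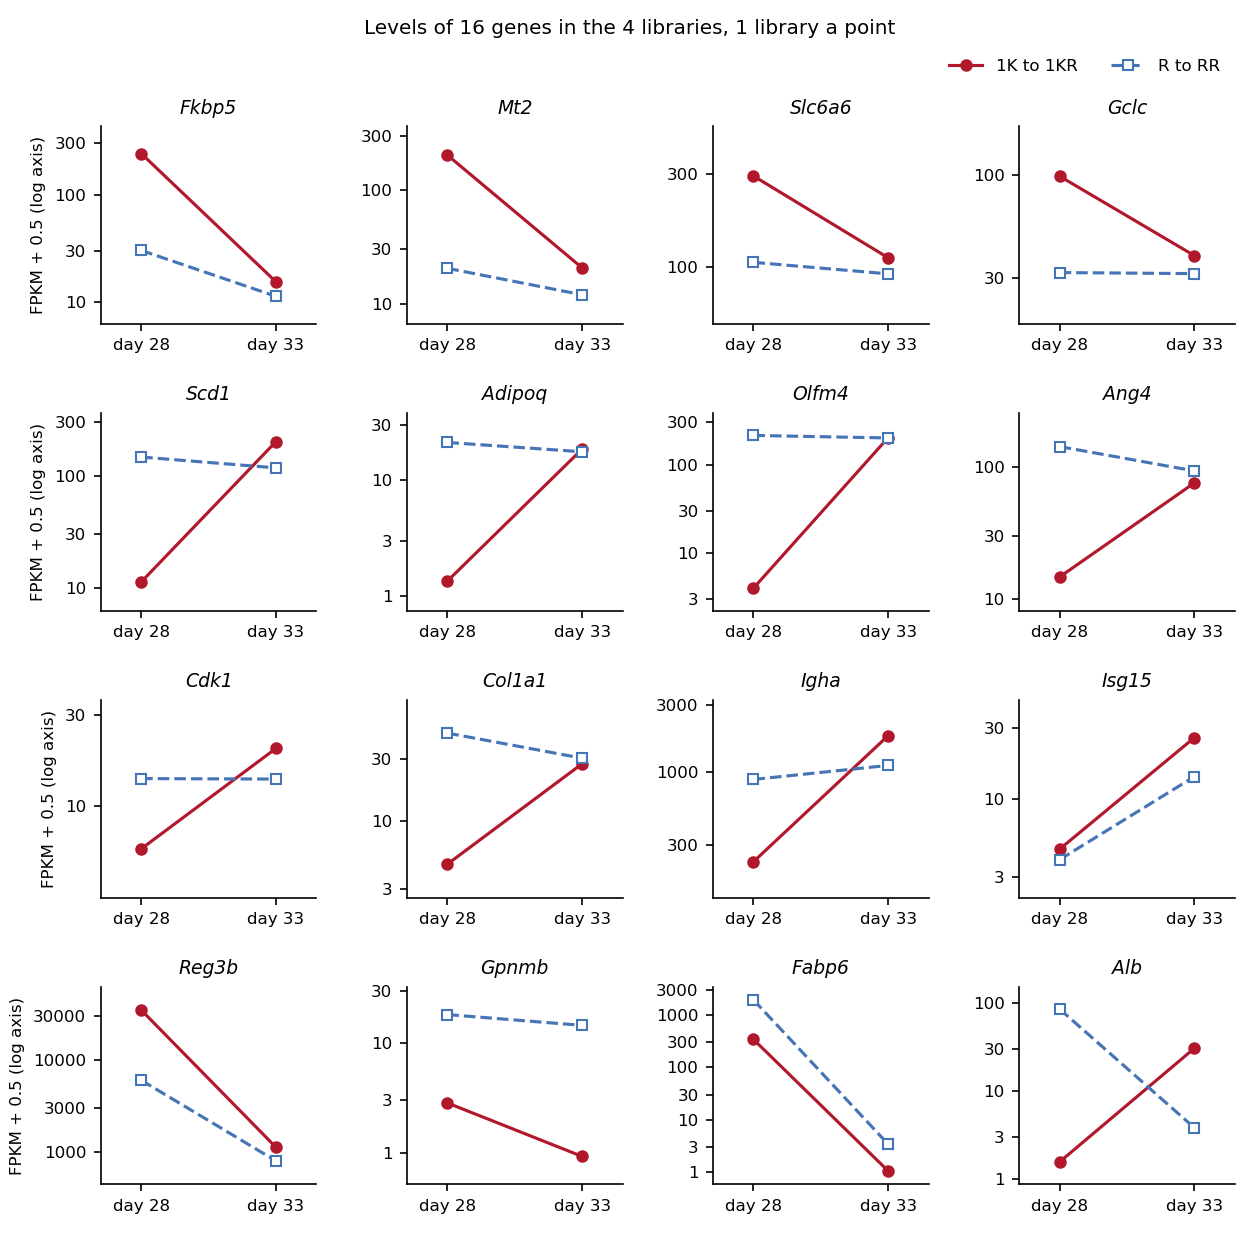
Levels of 16 genes as FPKM + 0.5 on log axes, 1 library a point, with 1K to 1KR in filled red circles and R to RR in open blue squares. In Fkbp5, Mt2, Slc6a6 and Gclc the 1K point is the high one, in Scd1, Adipoq, Olfm4, Ang4, Col1a1 and Igha it is the low one, and in Reg3b and Fabp6 both lines go down.

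Lists of lipid and sugar absorption had medians further from 0 between RR and R than between 1KR and 1K. Of 22 lipid absorption genes, 2 were higher in 1KR, 1 was lower and the median was -0.17, while RR minus R had 8 higher, 0 lower and a median of 0.86. Of 14 genes of sugar digestion and transport, 1 was higher, 2 were lower and the median was -0.51, against 11 higher, 0 lower and 1.58. The brush border peptidases were otherwise, with 1 of 13 higher, 1 lower and a median of -0.42, against 3 higher, 3 lower and 0.08. Fabp1, a fatty acid binding protein, stood at 113 FPKM in R, 2941 in 1K, 1525 in RR and 1952 in 1KR. Apoa4, an apolipoprotein of chylomicrons, stood at 498, 9730.0, 4439 and 5671. Slc2a2, the basolateral glucose carrier GLUT2, stood at 32.9, 357, 203 and 185. In these 3 genes R was the low library, and 1K, RR and 1KR lay well above it. Of the genes of proximal gut, 4 of 11 were higher in 1KR, 0 were lower and the median was 0.43, against 7 of 10 higher, 1 lower and 1.61 for RR minus R. Slc46a1, the proton-coupled folate carrier of the duodenum and jejunum, had 9.94 FPKM in R, 42.1 in 1K, 90.0 in RR and 155 in 1KR, so R was the lowest library there too, and 1KR the highest. The part of the intestine sampled is not stated, and its bearing on these values was not tested.

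Among the drug and xenobiotic genes, 6 of 33 were higher in 1KR and 1 was lower (median 0.47), against 25 higher, 0 lower of 34 and a median of 1.48 for RR minus R. Cyp3a11, a broad drug-oxidising P450, was at 54.3 FPKM in R, 379.6 in 1K, 722 in RR and 255 in 1KR. Sult6b2, a sulfotransferase, was at 0.199, 137, 14.95 and 54.9 FPKM and was thus lower in 1KR than in 1K and higher in RR than in R. Cyp1a1, a P450 induced through the aryl hydrocarbon receptor, had 1.58 FPKM in 1K and 10.6 in 1KR, and 0.209 and 1.34 in R and RR.

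Most Paneth cell genes were at least 2-fold higher in 1KR than in 1K, as were some genes of dividing cells and few of crypt base stem cells. Olfm4, a secreted glycoprotein of crypt base stem cells (chr14:79984081-80023139, plus strand), stood at 214 FPKM in R, 3.51 in 1K, 199.98 in RR and 202 in 1KR, a difference of 5.66. On the stem cell list, 2 of 17 genes, Olfm4 and Smoc2, were at least 2-fold higher in 1KR, 0 were lower and the median was 0.19. Smoc2 had 7.97 FPKM in 1K and 20.2 in 1KR, and Lgr5, the receptor that defines these stem cells, had 6.28 in R, 1.75 in 1K, 4.15 in RR and 2.05 in 1KR. Lgr5 thus differed by 0.18 between 1KR and 1K. In 13 of the 17 genes, 1K was the lowest of the 4 libraries, beside 23.4% of all genes.

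Of 16 measured Paneth cell genes, 12 were higher in 1KR, 1 was lower and the median was 1.52, while RR minus R had 0 higher, 2 lower of 17 and a median of -0.41. Lyz1, the lysozyme of Paneth cells, stood at 2149 FPKM in R, 484 in 1K, 2048 in RR and 1516 in 1KR. Ang4, a bactericidal ribonuclease, stood at 141, 14.1, 92.2 and 74.7. Defa24, a defensin, had 2596, 1187, 3002 and 3213 FPKM, and defensin genes are close copies between which the counting may have divided fragments. In these 3 genes 1K was the lowest library. Guca2b, which encodes uroguanylin and is made by enterocytes as well, was the exception, with 5115 FPKM in 1K and 2201 in 1KR.

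Of 40 cell cycle genes, 11 were higher in 1KR and 0 were lower, with a median of 0.75, against 0 higher, 0 lower and -0.26 for RR minus R. In 39 of the 40, 1K was the lowest of the 4 libraries, beside 23.4% of all genes. Cdk1, the kinase that drives mitosis, had 13.5 FPKM in R, 5.48 in 1K, 13.4 in RR and 19.6 in 1KR. Cenpf, a kinetochore protein, had 6.09, 1.246, 4.66 and 6.71 FPKM, and Top2a, which untangles DNA before division, had 33.6, 14.2, 24.4 and 35.9. Mki67, a marker of cycling cells, had 21.9, 8.37, 14.7 and 16.5. B cell genes, described further on, were lower in 1K too, and which cells divided was not tested. Cell cycle promoters hold the cell cycle homology region, TTTGAA, in 15 of 33 matched list members (45.5%) and in 18.1% of all windows, and CCAAT in 25 of 33 (75.8%) and 37.9%, both counted on either strand. The 3 members with the largest difference that hold TTTGAA are shown with those letters in capitals: Cenpf (chr1:189688047-189688116, minus strand), Cdk1 (chr10:69352890-69352959, minus strand) and Cenpa, which encodes the centromeric histone (chr5:30666870-30666935, plus strand), all from RefSeq on GRCm38.p6.
Cenpf: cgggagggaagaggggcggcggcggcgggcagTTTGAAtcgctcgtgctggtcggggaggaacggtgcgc
Cdk1: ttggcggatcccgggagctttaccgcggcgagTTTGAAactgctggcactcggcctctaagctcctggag
Cenpa: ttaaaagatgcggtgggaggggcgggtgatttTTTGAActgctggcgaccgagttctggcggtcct

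The cell cycle list and the matrix list share the low level of 1K. Of 29 extracellular matrix genes, 10 were higher in 1KR, 1 was lower and the median was 0.93, against 1 higher, 3 lower of 31 and -0.57 for RR minus R. In 25 of the 29, 1K was the lowest library, beside 23.4% of all genes. In 26, R was the highest, beside 5087 of all 17481 gene symbols. Col1a1, a chain of type I collagen, stood at 46.7 FPKM in R, 4.18 in 1K, 29.8 in RR and 27.0 in 1KR. Col3a1, of type III collagen, stood at 237, 23.7, 174 and 128. Serpinh1, the chaperone of collagen, stood at 25.8, 6.16, 23.3 and 20.9. In these 3 genes 1KR was close to RR. Fibroblast markers had 0 of 17 past 2-fold either way and a median of 0.24, against -0.34 for RR minus R. Smooth muscle genes had 0 of 18 and 0.27, against -0.47. In 9 of the 17 fibroblast genes and 15 of the 18 smooth muscle genes, 1K was the lowest library too, beside 23.4% of all genes. The fibroblast and smooth muscle lists thus shared the low level of 1K with smaller medians than the matrix list. Their medians are close to the size of 0.2 that carries no direction here. Endothelial genes had a median of 0.07, with 1K lowest in 9 of 19. Genes of enteric neurons and glia did not share the low level, with a median of -0.18 and 1K lowest in 2 of 11. No test of these gaps between lists was possible with 1 library a side. Thbs1, thrombospondin, was the matrix gene past 2-fold in the other direction, at 13.1 FPKM in 1K and 6.28 in 1KR.

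Immunoglobulin transcripts were several-fold higher in 1KR than in 1K. Of 169 measured V segments, 151 were at least 2-fold higher and 3 were lower, with a median of 2.57, while RR minus R had 38 higher and 37 lower of 168 and a median of -0.14. Summed over segments, the heavy chain V genes had 1283 FPKM in R, 319 in 1K, 1096 in RR and 1833 in 1KR. The kappa V genes had 1731, 311, 1641 and 2663. Segments low in 1K may have passed the floor only through 1KR, which favours a higher count. The count of 151 and the median are therefore no result by themselves, while the summed FPKM take all segments without a floor. V segments share long stretches of sequence, so a fragment may be assigned to a close copy, and the class was chosen after its values were seen. Igha, the constant region of IgA, the antibody secreted into the gut, stood at 882 FPKM in R, 229 in 1K, 1109.6 in RR and 1810.0 in 1KR (2.98). Jchain, which joins IgA into dimers, stood at 202, 41.7, 223 and 336. Ighm, the constant region of IgM, stood at 178, 19.5, 128 and 61.8, and was lower in 1KR than in RR or R.

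Of 15 plasma cell genes, 10 were higher in 1KR, 0 were lower and the median was 1.87, against 0, 0 of 13 and -0.11. Mzb1, a chaperone of antibody secretion, stood at 5.92 FPKM in R, 0.874 in 1K, 5.75 in RR and 16.7 in 1KR. Xbp1, a secretory regulator that epithelium also makes, stood at 101, 106, 117 and 109.7. Of 17 B cell genes, 14 were higher, 0 were lower and the median was 1.33, against 0 higher, 3 lower of 16 and -0.50. In all 17 of them 1K was the lowest of the 4 libraries, beside 23.4% of all genes. Cr2, a complement receptor of follicular B cells, had 20.7 FPKM in R, 3.99 in 1K, 6.04 in RR and 7.54 in 1KR. Cr2 was thus lower in RR and in 1KR than in R. Glycam1, a ligand of lymph node endothelium, had 6.02 FPKM in R, 0.0960 in 1K, 1.00 in RR and 6.73 in 1KR, and the amount of lymphoid tissue in a sample was not tested.

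Many T and NK cell genes were higher at day 33 in both pairs. Of 22 genes, 11 were higher in 1KR, 0 were lower and the median was 1.06, against 9 of 21, 0 and 0.93 for RR minus R. In 21 of the 22, 1KR was the highest of the 4 libraries, beside 22.4% of all genes. Gzmb, a cytotoxic protease, had 3.12 FPKM in R, 7.08 in 1K, 13.4 in RR and 25.7 in 1KR, and Ccl5, a chemokine of activated T cells, had 14.4, 17.5, 34.4 and 68.7. MHC class II genes had 6 of 10 higher, 0 lower and a median of 1.08, beside 0, 0 and 0.13. H2-Eb1, a class II chain, had 55.0, 30.4, 69.6 and 93.3 FPKM. Macrophage genes had 2 of 22 higher, 2 lower and a median of 0.56, against 0, 0 of 23 and -0.20 for RR minus R. These counts are near the shares of all genes, 6.57% higher and 7.79% lower, and are no result about the list. In 16 of the 22, 1K was the lowest of the 4 libraries, beside 23.4% of all genes. Gpnmb, a lysosomal glycoprotein, stood at 17.7 FPKM in R, 2.35 in 1K, 14.004 in RR and 0.426 in 1KR. Mmp12, macrophage elastase, stood at 14.03, 1.67, 11.1 and 0.338. Both genes were lower in both libraries of mice that had been on the deficient diet than in R and RR, and 1KR was the lowest of the 4. Lyz2, a lysozyme of myeloid cells, stood at 259.9, 31.4, 159 and 72.5 FPKM and was higher in 1KR than in 1K.

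Of 38 interferon response genes, 18 were at least 2-fold higher in 1KR and 0 were lower, with a median of 0.97, against 4 higher and 0 lower of 36 and 0.33 for RR minus R. In 30 of the 38 genes, 1KR was the highest of the 4 libraries, beside 22.4% of all genes. Ifi27l2a, a small mitochondrial protein induced by interferon, stood at 27.4 FPKM in R, 5.82 in 1K, 45.5 in RR and 56.2 in 1KR. Isg15, a ubiquitin-like modifier, stood at 3.41, 4.09, 13.6 and 25.4, and Oas3, which senses double-stranded RNA, at 4.61, 1.96, 10.8 and 15.9. All 3 were higher in RR than in R as well, by 0.72, 1.86 and 1.15. Irf7, the transcription factor that amplifies type I interferon, had 40.6 FPKM in 1K and 105 in 1KR, while Mx1, an antiviral GTPase, had 3.76 and 2.85. The letters GAAANNGAA of the interferon response element, on either strand, occur in 22 of 27 matched list promoters (81.5%) and in 8.57% of all windows. The 3 members with the largest difference that hold them are shown with the letters in capitals: Oas3 (chr5:120777690-120777759, minus strand), Isg15 (chr4:156200846-156200915, minus strand) and Ifi44, a cytoplasmic interferon-induced protein with 0.953 FPKM in 1K and 6.94 in 1KR (chr3:151749875-151749944, minus strand), all RefSeq, GRCm38.p6. Overlapping matches form 1 longer run of capitals in Oas3 and Isg15.
Oas3: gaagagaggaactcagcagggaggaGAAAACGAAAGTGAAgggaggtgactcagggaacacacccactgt
Isg15: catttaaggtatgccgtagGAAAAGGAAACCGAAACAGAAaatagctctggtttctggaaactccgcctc
Ifi44: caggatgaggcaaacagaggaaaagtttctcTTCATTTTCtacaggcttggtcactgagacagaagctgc

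**Figure D3:**
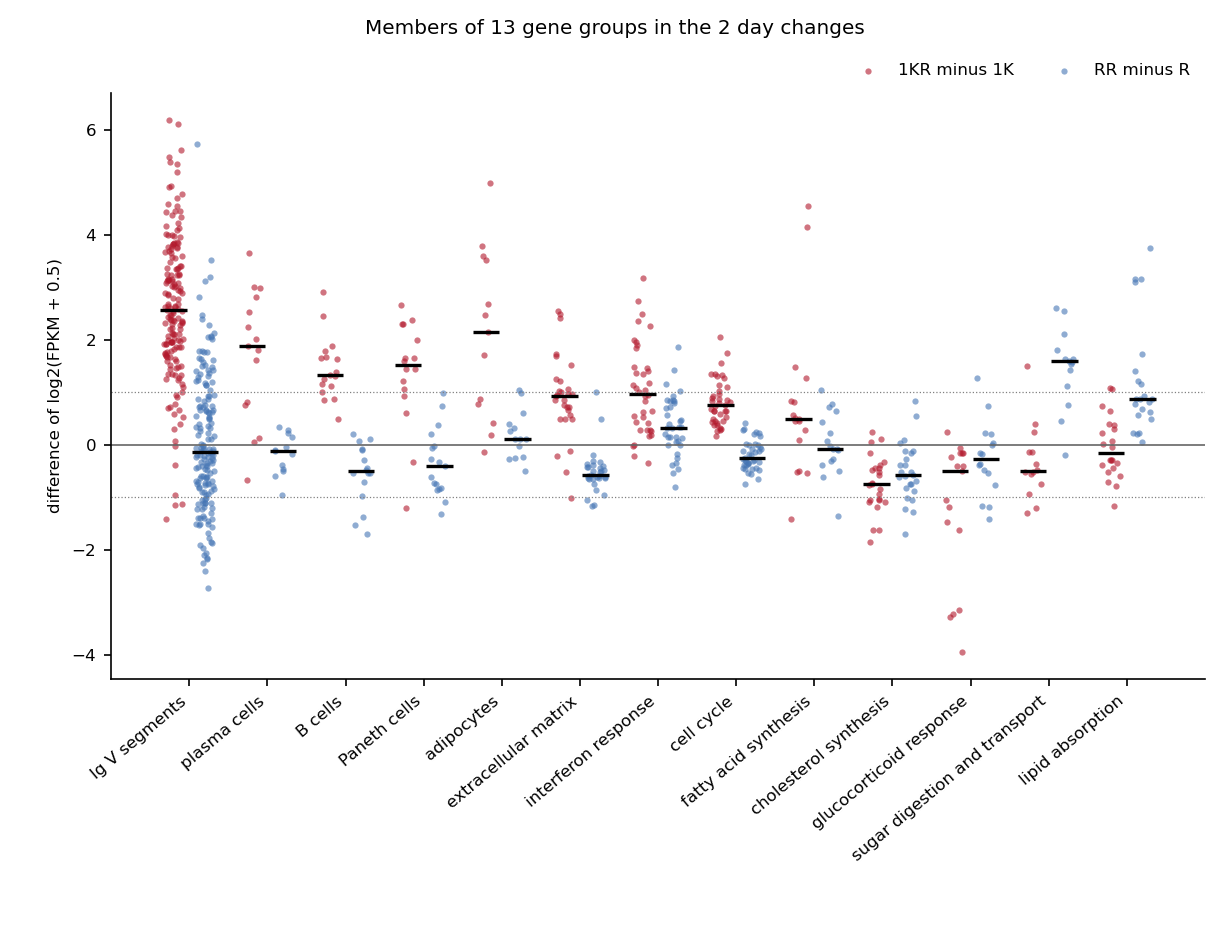
Difference of log2(FPKM + 0.5) of each measured member of 13 gene groups, 1KR minus 1K in red and RR minus R in blue, with black bars at the medians and dotted lines at 2-fold. Ig V segments, plasma cell, B cell, Paneth cell, adipocyte, matrix and cell cycle genes have medians above 0 in red and around or below 0 in blue, and sugar genes have a median above 0 in blue.

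Several epithelial defence genes were far lower at day 33 in both pairs. Of 19 genes, 8 were lower in 1KR, 4 were higher and the median was -0.58, against 8 lower, 3 higher and -0.73. Reg3b, a secreted antimicrobial lectin (chr6:78370657-78373466, plus strand), stood at 6069.8 FPKM in R, 35192 in 1K, 806 in RR and 1132 in 1KR, a difference of -4.96. Reg3g, its close relative, with which it may share fragments, stood at 2969.9, 10668, 549 and 758. Saa1, an acute phase protein that carries retinol, stood at 23.2, 231, 0.552 and 3.12, and Fut2, which adds fucose to surface glycans, at 13.7, 110.0, 0.586 and 0.603. In these 4 genes 1K was the highest library and both libraries of day 33 were low. Nos2, inducible nitric oxide synthase, was instead highest in R, at 95.2 FPKM, with 27.5 in 1K, 3.13 in RR and 1.22 in 1KR.

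A few genes were high in 1K alone among the 4 libraries compared here, and the other libraries of the series were not compared for them. Gml and Gml2, neighbouring GPI-anchored proteins of near-identical sequence, had 26.6 and 25.9 FPKM in 1K and at most 0.633 FPKM in the other 3 libraries. Psca, a surface antigen of prostate and stomach epithelium, had 10.9 FPKM in 1K and was listed at 0 in R, RR and 1KR. Myot, a muscle Z-disc protein, had 9.33 FPKM in 1K, 0.268 in R and was listed at 0 in RR and 1KR. Clca3a1, a secreted regulator of chloride channels, had 63.5 FPKM in 1K and 3.98, 2.44 and 4.42 in R, RR and 1KR. These 5 genes came from the 15 lowest differences of the comparison.

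Several genes of the distal small intestine were far lower at day 33 in both pairs. Of 7 ileal genes, 3 were at least 2-fold lower in 1KR and 4 in RR, and 0 were higher in either. Fabp6, the ileal bile acid binding protein (chr11:43596049-43601540, minus strand), stood at 1946 FPKM in R, 342 in 1K, 2.90 in RR and 0.545 in 1KR, with differences of -8.36 and -9.16. Slc10a2, the ileal bile acid carrier, stood at 50.9, 29.5, 1.58 and 1.48, and Fgf15, the hormone by which ileum restrains bile acid synthesis, at 34.5, 8.25, 1.79 and 0.147. Reg1, a regenerating protein of pancreas and proximal gut, had the reverse order, with 3.19 FPKM in R, 6.59 in 1K, 244 in RR and 413 in 1KR. The position of the sample along the intestine is not stated in the labels and cannot be told apart from the day in these genes.

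Lists of goblet and enteroendocrine cells had medians below 0 for 1KR minus 1K, and that of goblet cells was below 0 for RR minus R too. Goblet cell genes had 3 of 17 higher, 2 lower and a median of -0.34, against 0 higher, 2 lower of 17 and -0.44 for RR minus R. Muc2, the gel-forming mucin, stood at 7863 FPKM in R, 5892 in 1K, 3452 in RR and 2015 in 1KR. The 3 higher members were Ang4, Ccl9 and Klk1, of which Ang4 is on the Paneth cell list too. Enteroendocrine genes had 0 of 17 higher, 4 lower and a median of -0.52, against 3 higher, 0 lower of 17 and 0.19. Chga, chromogranin A, stood at 22.1, 45.7, 25.2 and 22.4 FPKM. In 11 of the 17, 1K was the highest library, beside 34.5% of all genes. Genes encoded in the mitochondrial genome had 2 of 13 lower, 0 higher and a median of -0.67, against 0, 0 and 0.14 for RR minus R. In all 13, 1K was the highest library, beside 34.5% of all genes. The complex I subunit mt-Nd5 stood at 1304, 1992, 1181 and 798 FPKM. Nuclear genes of oxidative phosphorylation had 0 of 34 past 2-fold and a median of 0.18, against 10 higher, 0 lower of 34 and 0.74 for RR minus R.

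Liver transcripts took opposite directions in the 2 pairs. Of 14 liver genes, 10 were higher in 1KR, 1 was lower and the median was 1.89, against 0 higher, 11 lower of 16 and -1.67 for RR minus R. Alb, serum albumin, stood at 85.3 FPKM in R, 1.08 in 1K, 3.36 in RR and 30.3 in 1KR. Hpx, hemopexin, stood at 19.4, 0.221, 0.569 and 7.70. R and 1KR were the high libraries and 1K and RR the low ones, at shares of all FPKM between 0.0134% and 0.0541% for the whole list. Hpx was under 1 FPKM in 1K and in RR, so it passed the floor only through 1KR in one pair and through R in the other. Such members favour opposite counts, so the counts and medians of the liver list are no result by themselves. The shares do not use the floor. Of 26 pancreatic acinar genes, 14 were measured, of which 9 were higher in 1KR and 0 lower. RR minus R had 2 higher and 1 lower of 9. Among the 26, 11 were listed at 0 in 1K and 5 in 1KR, so members may have passed the floor only through 1KR. The count is therefore not a result about the list, which held 0.0473% of all FPKM in 1K and 0.0557% in 1KR. Ctrb1, a chymotrypsinogen, stood at 1.36, 0.910, 0.237 and 5.80 FPKM in R, 1K, RR and 1KR. Of 8 red cell genes, 4 were listed at 0 in 1K and 0 in 1KR, and the 2 measured were both higher in 1KR. RR minus R had 3 of 5 higher, 0 lower and a median of 1.14. Hbb-bs, a beta globin, stood at 10.8, 2.70, 24.7 and 28.5 FPKM. The part of neighbouring organs and of blood in the results above was not tested.

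Some noncoding classes leaned lower in 1KR. Of 700 antisense genes, 18 were higher and 155 were lower (median -0.53), and of 732 transcripts in the provisional class TEC 8 were higher and 139 were lower (median -0.65). Sense intronic genes had 1 of 137 higher, 34 lower and a median of -0.70. The same 3 classes had medians of -0.28, -0.50 and -0.49 for RR minus R, with 42, 16 and 2 genes higher and 67, 66 and 13 lower. Small RNA classes had more even counts for 1KR minus 1K. Of 202 snoRNAs 54 were higher and 64 lower, of 125 snRNAs 45 and 51, and of 75 miRNAs 27 and 30. Protein-coding genes had 634 of 12946 higher, 439 lower and a median of -0.02. The classes come from GENCODE and were chosen after their values were seen.

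**Figure D4:**
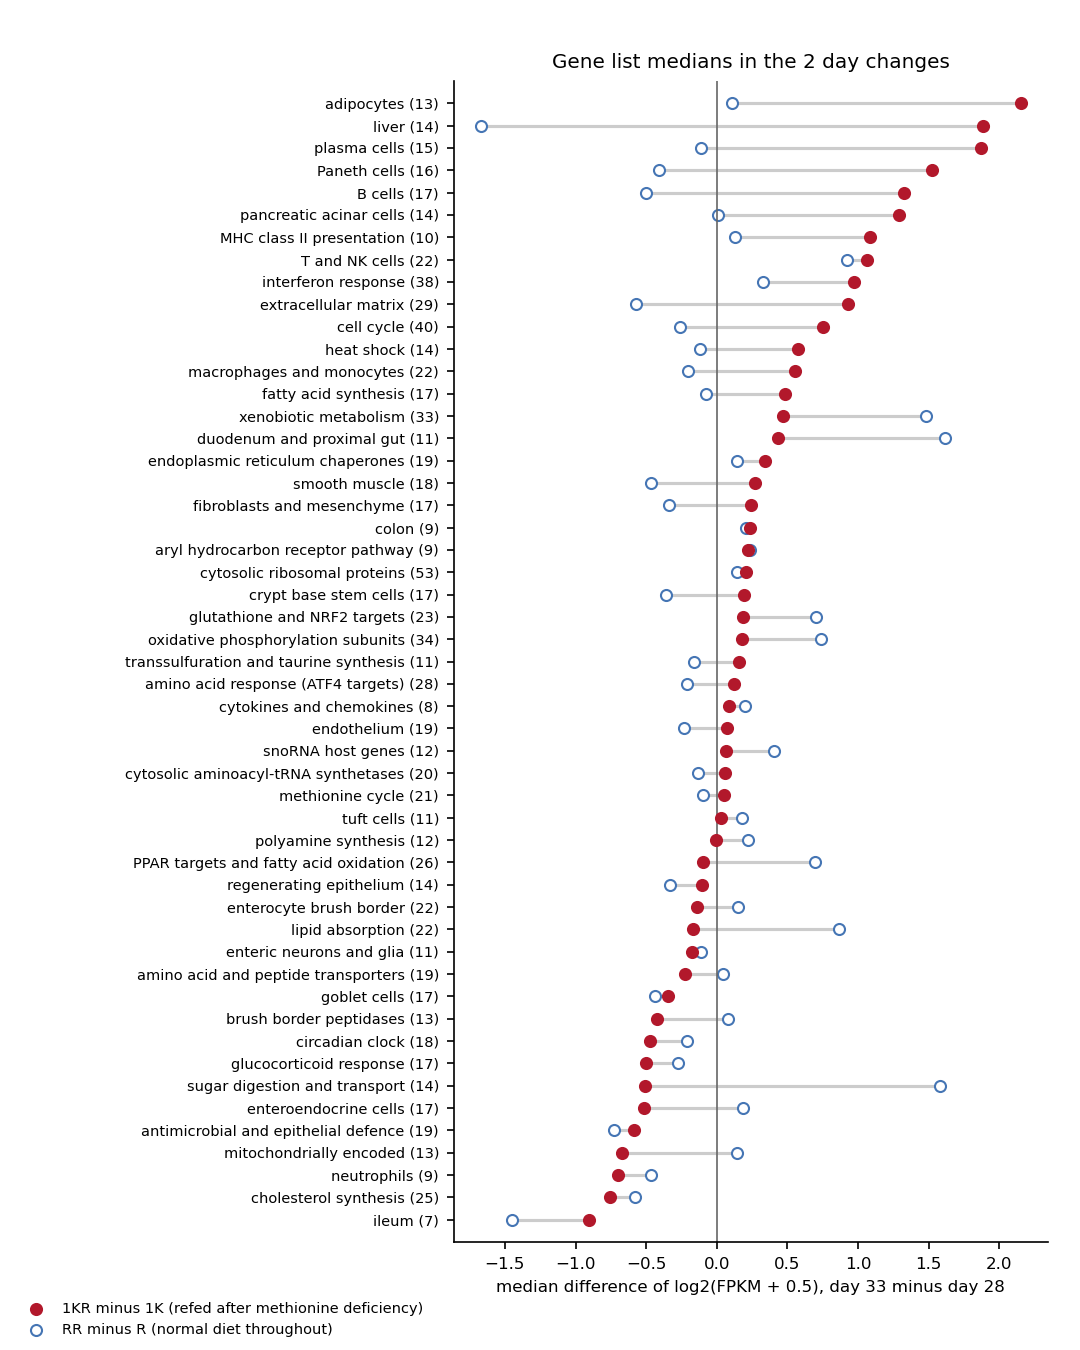
Median difference of log2(FPKM + 0.5) of the measured members of each gene list with at least 7 of them in both pairs (number measured in 1KR against 1K in brackets), 1KR minus 1K as filled red points and RR minus R as open blue points. Adipocyte, liver, plasma cell and Paneth cell genes have the largest positive medians in red, ileal and cholesterol genes the lowest, and the widest gap between red and blue is that of the liver list.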

How the data were processed

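RNA was extracted from intestinal tissue with ISOGEN, depleted of ribosomal RNA (Ribo-Zero Plus) and made into libraries with a stranded TruSeq kit whose mRNA bead step was left out, per the labels' protocols. RNAs without a poly(A) tail were therefore kept. The submitters' processing notes name Cuffdiff 2.2.1, HISAT2 without a version, and GRCm38. The authors deposited FPKM values for 55468 genes in 9 libraries, per the file headers, and the sources used here do not give the annotation they used. The table holds no counts, so depth was estimated from the steps between the smallest FPKM values, which rests on annotated transcript lengths, and no counting interval is given.

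Differences were taken on log2(FPKM + 0.5), with a floor of 1 FPKM in either library of a pair and 2-fold as the limit for counting a gene. With 1 library a condition no test was made. Gene types and coordinates came from GENCODE M21, where 241 genes were not found. Of 55 gene lists, 5 symbols were not in the table, and for 113 symbols with several identifiers the one with the highest mean was used in lists. Named genes were the 15 highest and 15 lowest differences among nuclear protein-coding genes that reached 5 FPKM in 1K or 1KR (without predicted genes, pseudogenes, small RNAs, histones and antigen receptor segments), the 10 highest and 10 lowest differences between the day changes by the same filter, up to 6 members of each list, and members of the nutrient lists described by role. The comparison, lists, motifs and alternatives were chosen with earlier results of these data known. Other genes named, and the counts of which library was highest or lowest, were chosen after their values were seen.

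The alternatives were pseudocounts of 1 and 0.1, no floor or one of 5 FPKM, scaling by median of ratios (8727 genes) and scaling to the summed FPKM of nuclear protein-coding genes. The scripts were tested on simulated data and run with Python 3.11.15, pandas 2.3.3 and numpy 2.4.6.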

Additional observations from a re-analysis of the deposited data

Results flagged for a closer look

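The results here had opposite directions in the 2 day changes, each past 2-fold. Each pair has 1 library a side, so the difference between the pairs was not tested. Some named genes were chosen by the largest differences between the day changes, which favours opposite directions, so their number is no result. Of all 16720 genes measured in both pairs, 125 were higher in 1KR but lower in RR, and 76 were lower in 1KR but higher in RR.

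Of the named genes, 10 were higher in 1KR than in 1K but lower in RR than in R, among them several of liver plasma proteins. Alb, serum albumin, differed by 4.28 between 1KR and 1K and by -4.47 between RR and R on the log2 scale. Hpx, hemopexin, differed by 3.51 and -4.22, Fgg by 2.96 and -3.72 and Fga by 2.10 and -4.33, both chains of fibrinogen. Ahsg, fetuin A, differed by 2.80 and -2.64, and Orm1, an acute phase glycoprotein, by 3.52 and -1.65. The median of the liver list was 1.89 and -1.67, a contrast that the floor favours, since members may have passed it through 1KR in one pair and R in the other. Mat1a, the liver form of the S-adenosylmethionine synthetase, differed by 1.68 and -2.21. Ctrb1, a pancreatic chymotrypsinogen, differed by 2.16 and -1.33, Defa5, a Paneth cell defensin, by 2.00 and -1.10, and Glycam1, of lymph node endothelium, by 3.60 and -2.12.

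Lower in 1KR than in 1K but higher in RR than in R were Cemip, which degrades hyaluronan, at -2.90 and 1.28, and Prr5l, a partner of the TORC2 kinase complex, at -1.49 and 2.69. Pdk4, the kinase that restrains pyruvate oxidation, stood at -1.47 and 1.27, and G6pc, glucose-6-phosphatase, at -1.21 and 1.63. Il18, an epithelial cytokine, differed by -1.47 and 1.38, and Sult6b2, a sulfotransferase, by -1.31 and 4.47.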

How the results depend on the processing

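Of the counts of genes past 2-fold, a floor of 5 FPKM moved those for 1KR against 1K to 678 higher and 686 lower, the lower count of RR against R to 433, the difference of the day changes to 907 higher and 1056 lower, and the genes shared by both day changes to 133 higher and 124 lower. It tests fewer genes. A pseudocount of 0.1 raised the shared lower count to 384. Scaling to protein-coding genes gave 897 lower for 1KR against 1K, 1552 lower for RR against R, and 2985 higher and 979 lower for the difference. The other counts stayed within 1.5 times under the alternatives run. Of the list medians at least 0.2 in size, 3 changed sign in any alternative: regenerating epithelium for RR minus R (0.33 with a floor of 5 FPKM), colon for 1KR minus 1K (-0.21, same floor) and skeletal muscle for RR minus R (-0.017 with no floor). Counting smaller medians too, protein-coding scaling turned 16 of 110, a floor of 5 FPKM 6 of 108, and median-of-ratios scaling and no floor 5 of 110 each, while a pseudocount of 1 turned 1 and a pseudocount of 0.1 turned 0. Of 194 named genes past 2-fold, 17 were under it with a pseudocount of 1, 7 of 193 with median-of-ratios scaling and 20 of 192 with protein-coding scaling, and 0 changed direction. No paired analysis was possible because each condition has 1 library and the labels carry no replicate numbers, and for the same reason no replicate could be left out. Genes near 0.5 FPKM, where 1 FPKM at 2 kb is 43.1 fragments in 1K, have differences set largely by the pseudocount.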
